A study of Homo sapiens with 18 samples.

Results

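The collagen genes described here are 42 human genes that each encode 1 collagen chain and were chosen by symbol. Each symbol matched 1 of the 61487 Ensembl gene identifiers in a table of read counts. RNA was sequenced from 18 libraries of MSC-hTERT, a human mesenchymal stem cell line immortalized with hTERT, the catalytic subunit of telomerase. The libraries form 6 groups of 3 by the construct the cells carried, all in the same line and medium, which contained serum, FGF-2, heparin and ascorbic acid. The groups are pMSCV (named for a retroviral vector and taken as the control), SRF (serum response factor, a transcription factor that binds CArG boxes), and 4 fusions (SRF-RELA, SRF-PDGFRB, SRF-ICA1L and SRF-FOXO1), which join SRF to a partner gene. The labels do not say whether the 3 libraries of a group came from separate cultures or clones, so p-values measure the spread between these libraries, which may be technical. The comparisons ask how collagen RNA in cells with SRF or a fusion differed from cells with the vector, how each fusion differed from SRF, and how the fusions differed from each other.

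Collagens are extracellular proteins in which 3 chains wind into a triple helix, held by a repeat with glycine at every turn. Fibrillar collagens (types I, III, V, XI and others) build the fibrils of bone, tendon, skin and cartilage. Type IV forms the sheet of basement membranes, type VI forms beaded filaments around cells, and the fibril-associated collagens attach fibrils to their surroundings. Chains are hydroxylated and folded in the endoplasmic reticulum, a step that uses ascorbic acid, then exported, trimmed by proteases and cross-linked outside the cell. Mesenchymal stromal cells are known for abundant type I, III and VI collagen RNA.

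Library totals ran from 19362319 to 29806771 counts. The 7 mesenchymal stem cell markers were at 1 CPM (counts scaled to a library total of 1e6) or more in every library, with summed levels from 3716 to 5966 CPM. The 5 blood markers summed to 0.956 to 4.13 CPM. Epithelial markers summed to 50.95 to 232 CPM, from KRT8 and KRT18 with EPCAM and KRT19 under 1 CPM, and endothelial markers to 71.3 to 393 CPM, mostly TEK. Chondrocyte markers summed to 70.5 to 444 CPM, mostly HAPLN1 with ACAN and COMP under 1 CPM, and osteoblast markers to 0.688 to 41.0 CPM, mostly ALPL. Their part in the collagen results was not tested. SRF was at 57.3 to 64.4 CPM in pMSCV and above that in every other library. ICA1L and RELA were each higher in the 3 libraries named for them than in all others. FOXO1 was at 7.36 to 14.4 CPM under the SRF-FOXO1 label and 9.45 to 17.45 CPM in pMSCV, so its count does not check that label, and SRF-FOXO1 in what follows means the libraries labelled so. PDGFRB was at 525.6 to 929.7 CPM in SRF-PDGFRB and overlapped with SRF only, which reached 621.4 CPM.

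SRF replicate 3 and SRF-FOXO1 replicate 1 stood apart in how counts depended on transcript length. The log2 level of the longest transcripts (at least 6638 bases) relative to the shortest (at most 761 bases), as a deviation from the mean of the 18 libraries, was -0.64 and -0.41 in these libraries and -0.12 to 0.16 in the other 16. The 37 collagen genes that could be tested have long transcripts, with a median of 6233 bases against 2649 for all tested genes, and 12 of them reach 6638 bases. SRF replicate 3 held the lowest level of its group for 21 of the 37 chains and SRF-FOXO1 replicate 1 for 23, and the replicate 1 libraries of SRF-RELA and SRF-ICA1L, which had no such length trend, did so for 23 and 22. Fits without both libraries that stood apart are given where they end a call named below. Calls of chains that they made against pMSCV or SRF are named too.

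Collagen RNA made up a few percent of every library. The 42 chains took 4.48%, 4.18% and 3.86% of the counts in pMSCV, 5.09%, 4.55% and 3.36% in SRF, and 3.11%, 5.29% and 4.36% in the libraries labelled SRF-FOXO1. The share was 4.51%, 7.71% and 5.39% for SRF-ICA1L. It was 4.17%, 4.51% and 3.79% for SRF-PDGFRB. SRF-RELA gave 4.396%, 6.10% and 4.41%. SRF-ICA1L was the one group whose 3 libraries all lay above the 3 pMSCV libraries, by a narrow margin in replicate 1. Fibrillar chains made up most of this, at 2.29% ± 0.142 (SD, n = 3) in pMSCV and 3.98% ± 1.35 in SRF-ICA1L. In bulk RNA, fewer cells of a type and less RNA per cell cannot be told apart.

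Levels between genes were compared as CPM per kilobase of transcript, averaged over the 18 libraries. COL1A2 and COL1A1, whose products form type I collagen, were at 1767 and 1243 CPM per kilobase, and COL3A1, the single chain of type III, at 1289.6. The type VI chains COL6A2, COL6A1 and COL6A3 followed at 903, 775 and 533, then the type IV chains COL4A1 and COL4A2 at 295 and 294. The type V chains COL5A2 and COL5A1, which regulate fibril width, were at 195 and 112, COL12A1, a fibril-associated chain, at 108 and COL8A1, of the short-chain networks, at 83.2. COL11A1, a chain of the cartilage type XI collagen that nucleates fibrils, ranked 21 of the 42. The 5 chains that could not be tested were at or near 0: COL22A1 and COL26A1 had 0 counts in all 18 libraries, COL9A1 had 3 counts in all, COL23A1 had 8 and COL2A1, the chain of cartilage type II collagen, had 58. A count of 0 allows up to 3 counts, which is 0.101 to 0.155 CPM depending on the library and covers counting error only.

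**Figure D1:**
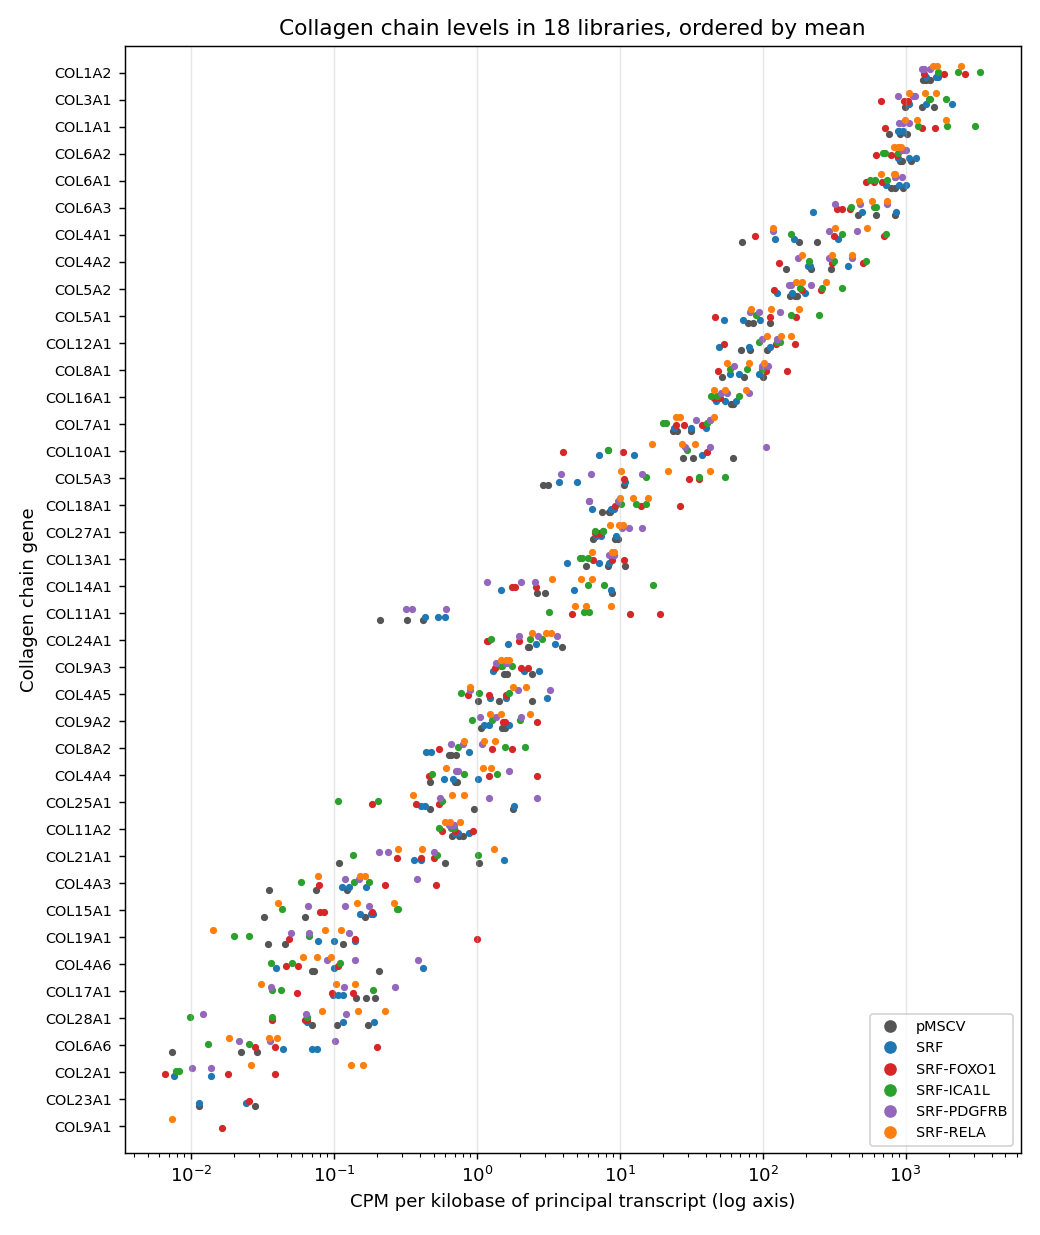
Level of each collagen chain in every library as CPM per kilobase of transcript (log axis), with chains ordered by their mean and colours for groups. Zero counts are not drawn, so COL22A1 and COL26A1 have no points. The chains of types I, III and VI lie at the top, and COL11A1 shows a wide gap between groups.

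COL11A1 (ENSG00000060718, chr1:102876467-103108872, minus strand, GRCh38) was the chain that separated the groups. Its level was 1.52, 2.36 and 3.05 CPM in pMSCV, 4.34, 3.90 and 3.16 CPM in SRF and 2.54, 2.33 and 4.39 CPM in SRF-PDGFRB. It was 33.9, 139 and 85.7 CPM under the SRF-FOXO1 label, 23.2, 44.6 and 40.65 CPM in SRF-ICA1L, and 35.6, 62.65 and 42.2 CPM in SRF-RELA. The 9 libraries of these 3 fusions all lay above the 9 libraries of pMSCV, SRF and SRF-PDGFRB, and among themselves the 3 fusions overlapped. The 250 bases before the COL11A1 start annotated in RefSeq (GRCh38.p14, chr1:103108523-103108772, minus strand) are shown because COL11A1 is the one chain with a call in the fit without a replicate term, and the capitals mark the letters CCAAT read on the other strand.
COL11A1 upstream: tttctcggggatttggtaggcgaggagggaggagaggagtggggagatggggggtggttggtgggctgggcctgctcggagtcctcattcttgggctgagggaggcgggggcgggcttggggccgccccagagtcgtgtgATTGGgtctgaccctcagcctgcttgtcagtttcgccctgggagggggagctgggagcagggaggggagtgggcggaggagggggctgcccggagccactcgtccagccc

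Against pMSCV, COL11A1 rose in the libraries labelled SRF-FOXO1 by 5.33 on the log2 scale (SE 0.53, edgeR adjusted p = 0.000594), in SRF-ICA1L by 4.09 (SE 0.51, adjusted p = 0.00186) and in SRF-RELA by 4.404 (SE 0.51, adjusted p = 0.00141), by edgeR's quasi-likelihood test with adjustment over 18544 genes. Against SRF it rose by 4.58 (SE 0.51, edgeR adjusted p = 0.00149), 3.34 (SE 0.48, adjusted p = 0.00409) and 3.65 (SE 0.49, adjusted p = 0.00412) in the same order. In SRF against pMSCV the log2 difference was 0.75 (SE 0.50, edgeR adjusted p = 0.929), although the 2 groups did not overlap, and in SRF-PDGFRB against pMSCV it was 0.39 (SE 0.51, adjusted p = 1.0). SRF-PDGFRB lay below the libraries labelled SRF-FOXO1 by 4.94, below SRF-ICA1L by 3.695 and below SRF-RELA by 4.01 on the log2 scale (edgeR adjusted p = 0.00154, 0.00298 and 0.00290). The 3 fusions with high COL11A1 were not distinguished from each other: the log2 difference of SRF-FOXO1 from SRF-ICA1L was 1.25 (SE 0.43, edgeR adjusted p = 0.609), that of SRF-FOXO1 from SRF-RELA was 0.93 (SE 0.43, adjusted p = 0.478) and that of SRF-ICA1L from SRF-RELA was -0.32 (SE 0.43, adjusted p = 0.999). The comparisons with pMSCV share its 3 libraries, and those with SRF share the SRF libraries. Each of the 9 calls held in 6 of 6 fits that left out 1 library of the compared groups, and also without SRF replicate 3 and SRF-FOXO1 replicate 1. The call for the libraries labelled SRF-FOXO1 was lost in a fit of the compared groups alone, with edgeR adjusted p = 0.0723 against pMSCV, 0.0700 against SRF and 0.0577 against SRF-PDGFRB. COL11A1 had already been noted in these data, so these values are not independent support.

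**Figure D2:**
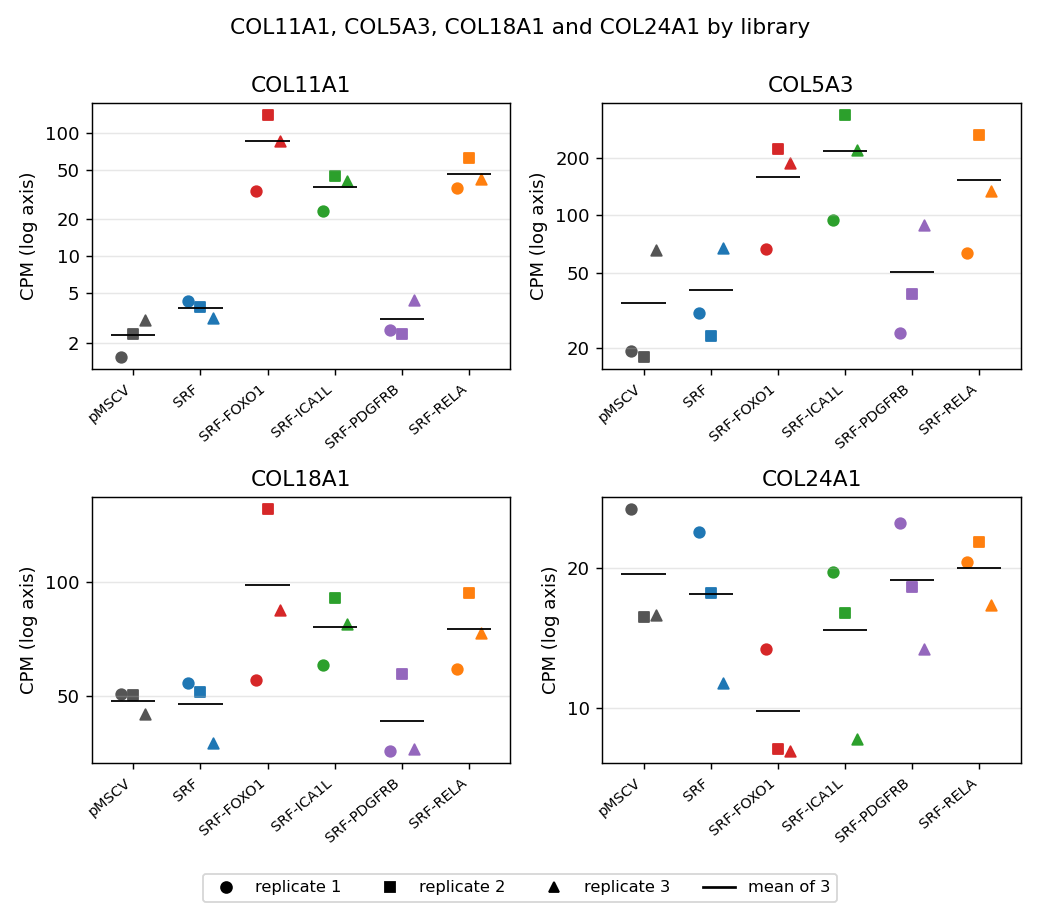
CPM of COL11A1, COL5A3, COL18A1 and COL24A1 in every library (log axes, 1 panel per gene), with shapes for replicate numbers and a line at the mean of 3. COL11A1 lies between 23.2 and 139 CPM in the SRF-RELA, SRF-ICA1L and SRF-FOXO1 libraries and between 1.52 and 4.39 CPM in the others.

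No other chain passed the test in any of the 15 comparisons in the fit of all 18 libraries without a replicate term. Against pMSCV, 0 of 37 chains were called in SRF, where 0.027% of all tested genes were, 1 in those labelled SRF-FOXO1 (0.928% of all), 1 in SRF-RELA (0.183%), 1 in SRF-ICA1L (0.469%) and 0 in SRF-PDGFRB (0.0324%). Against SRF, 1 was called in those labelled SRF-FOXO1 (1.36% of all), 1 in SRF-RELA (0.388%), 1 in SRF-ICA1L (0.782%) and 0 in SRF-PDGFRB (0.146%). Between fusions, 1 was called in SRF-FOXO1 against SRF-PDGFRB (0.717% of all), 1 in SRF-ICA1L against SRF-PDGFRB (0.82%) and 1 in SRF-PDGFRB against SRF-RELA (0.162%). None was called in SRF-FOXO1 against SRF-ICA1L (0.027%), SRF-FOXO1 against SRF-RELA (0.00539%) or SRF-ICA1L against SRF-RELA (0.0108%). At an unadjusted p under 0.05, edgeR gave against pMSCV 10 of 37 chains for SRF-FOXO1 (15.1% of all tested genes), 10 for SRF-ICA1L (10.8%), 2 for SRF-RELA (3.83%), 2 for SRF-PDGFRB (2.1%) and 0 for SRF (5.38%). Against SRF it gave 2 chains for SRF-PDGFRB (12.0% of all). For the pairs without a call it gave 7 for SRF-FOXO1 against SRF-ICA1L (6.07%), 7 for SRF-FOXO1 against SRF-RELA (10.4%) and 1 for SRF-ICA1L against SRF-RELA (3.06%). The median log2 difference over the 37 chains against pMSCV was 0.25 for SRF-FOXO1, 0.24 for SRF-RELA, 0.15 for SRF-ICA1L, 0.14 for SRF-PDGFRB and 0.09 for SRF, where the median over all tested genes lay between -0.01 and 0.01.

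Libraries with the same replicate number moved together in nearly all pairs of groups, and a replicate block (a term for the number that takes out what same-numbered libraries share) raised the calls. With the block, edgeR called 7 chains in the libraries labelled SRF-FOXO1 against pMSCV, where it called 7.03% of all tested genes, and 7 in SRF-ICA1L against pMSCV, where it called 4.66%. It called 7 chains in SRF-ICA1L against SRF (4.73% of all) and 1 in SRF-PDGFRB against SRF (2.34%). Between fusions it called 1 in SRF-FOXO1 against SRF-ICA1L (0.911%), 5 in SRF-FOXO1 against SRF-PDGFRB (4.35%), 1 in SRF-FOXO1 against SRF-RELA (0.167%) and 10 in SRF-ICA1L against SRF-PDGFRB (4.76%). Most calls other than COL11A1 were lost in at least 1 fit that left out a library of the compared groups, and the number of 6 such fits that kept the call is given with each. The block is not used for SRF-FOXO1 against SRF, whose replicate 1 libraries correlated at 0.0875, under the limit of 0.1, and at 0.136 once values were corrected for length. In what follows, a chain without a call is one not called with or without the block on all 18 libraries.

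Without SRF replicate 3 and SRF-FOXO1 replicate 1, and without the block, edgeR called other chains beside COL11A1. In SRF-FOXO1 against pMSCV, where 4.0% of all tested genes were then called, these were COL18A1 at 1.41 on the log2 scale (edgeR adjusted p = 0.0274), COL4A3 at 2.38 (adjusted p = 0.0438) and COL19A1 at 3.23 (adjusted p = 0.0440). In SRF-FOXO1 against SRF (5.5% of all), COL8A2 was higher by 1.795 (edgeR adjusted p = 0.0313) and COL6A1 and COL6A2 were lower. COL8A2 was also higher in SRF-ICA1L against SRF, by 1.80 (edgeR adjusted p = 0.0466; 1.36% of all), and COL18A1 in SRF-FOXO1 against SRF-PDGFRB, by 1.58 (edgeR adjusted p = 0.0201; 2.73% of all). SRF-FOXO1 and SRF have 2 libraries each in these fits. For COL8A2, the SRF library left out was the highest of its group, at 4.10 CPM against 2.23 and 2.07 CPM. With the block as well, further chains were called. Against pMSCV, SRF-FOXO1 (11.8% of all tested genes called) gained COL1A2, COL4A2, COL4A4, COL8A1, COL8A2 and COL12A1 as higher and COL6A1 and COL6A2 as lower. SRF-ICA1L (9.73%) gained COL5A1, COL8A2 and COL12A1 as higher and COL6A1 and COL10A1 as lower. SRF-RELA (1.52%) gained COL4A1, COL4A2, COL12A1 and COL2A1, all higher. The pMSCV counts of COL2A1 were all 0, and it passed the count filter only through the SRF-RELA libraries. Against SRF, SRF-ICA1L (9.31%) gained COL1A2 as higher and COL6A1 and COL6A2 as lower.

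**Figure D3:**
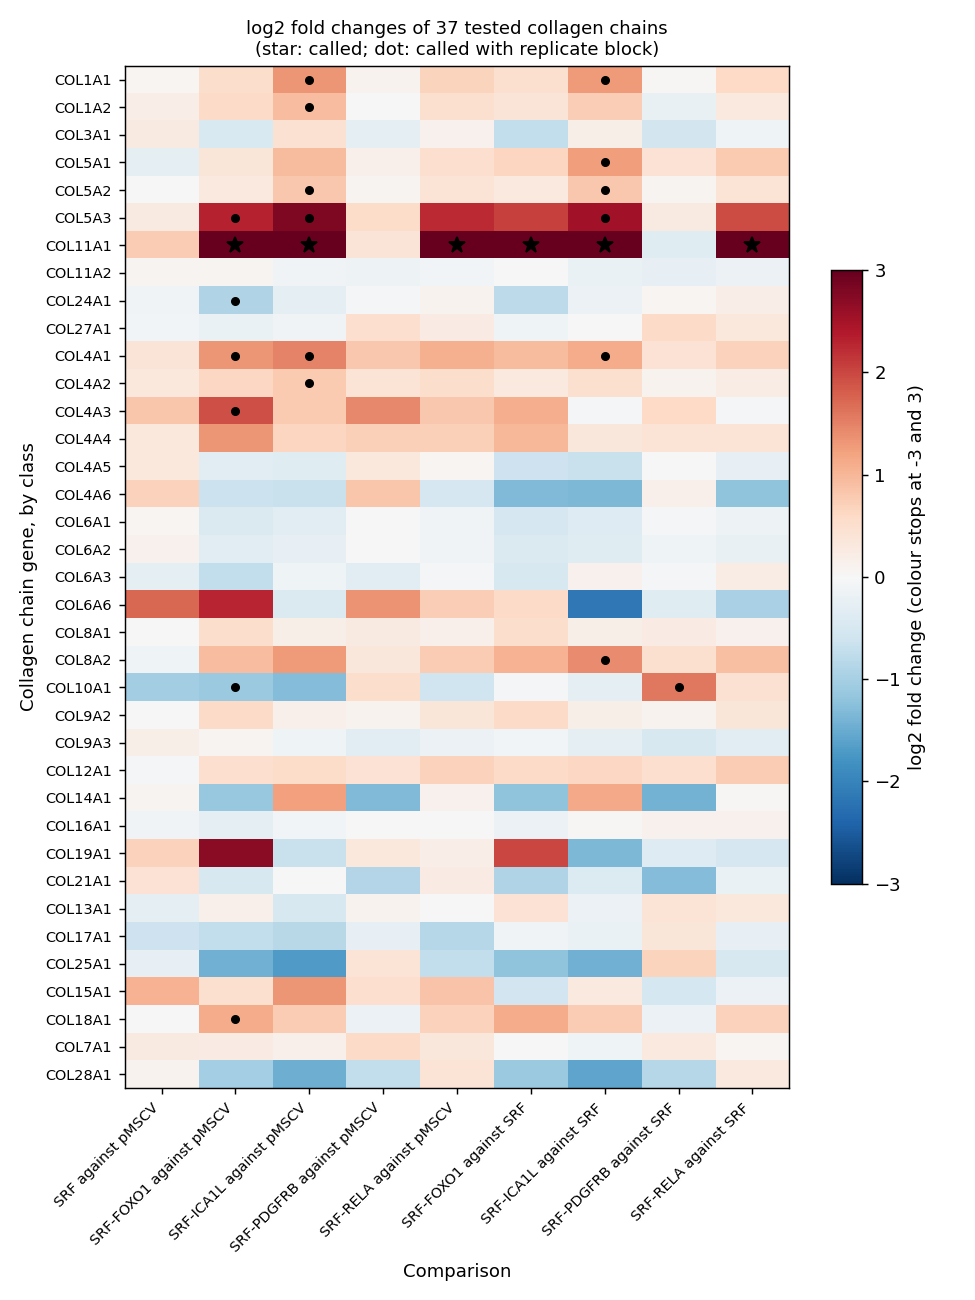
Log2 fold change of the 37 tested chains against pMSCV and against SRF, from the edgeR fit without a replicate term (colours stop at -3 and 3). Stars mark chains called in that fit and dots those called only with the replicate block, with no dots drawn for SRF-FOXO1 against SRF. Every star is in the COL11A1 row.

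Among the other fibrillar chains, COL1A1, COL1A2, COL5A2 and COL5A3 rose in SRF-ICA1L against pMSCV with the block. None of them passed in edgeR without it on all 18 libraries. DESeq2, which had no block, called COL1A1 and COL5A3 there, with 1.76% of all tested genes called. COL1A1 was at 6131, 6936 and 5166 CPM in pMSCV against 8266, 20593 and 13200.0 CPM in SRF-ICA1L. Every SRF-ICA1L library lay above every pMSCV library, and replicate 2 was the highest. With the replicate block COL1A1 rose by 1.245 on the log2 scale (SE 0.26, edgeR adjusted p = 0.0135, against 0.128 without the block), a call kept in 2 of 6 fits. COL1A2 was at 7522, 8049 and 7118 CPM in pMSCV against 9108, 17906 and 12546 CPM in SRF-ICA1L. It rose with the block by 0.87 (SE 0.20, edgeR adjusted p = 0.0237, against 0.204 without), also in 2 of 6 fits. COL5A2 rose with the block by 0.74 (SE 0.19, edgeR adjusted p = 0.0376, against 0.332 without), in 2 of 6 fits. All 3 calls were lost without SRF-ICA1L replicate 2.

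COL5A3, the third chain of type V collagen, was at 19.5, 18 and 65.8 CPM in pMSCV, 30.9, 23.2 and 67.6 CPM in SRF and 24.1, 38.7 and 88.9 CPM in SRF-PDGFRB. It was 66.5, 223 and 188 CPM under the SRF-FOXO1 label, 94.7, 336 and 221 CPM in SRF-ICA1L and 63.3, 263 and 134 CPM in SRF-RELA. In pMSCV, SRF and SRF-PDGFRB replicate 3 was the highest, whereas in the other 3 fusions replicate 2 was. Against pMSCV with the block, COL5A3 rose by 2.78 in SRF-ICA1L (SE 0.55, edgeR adjusted p = 0.0135, against 0.160 without; 4 of 6 fits) and by 2.28 in SRF-FOXO1 (SE 0.54, edgeR adjusted p = 0.0259, against 0.172 without; 2 of 6 fits). With the block and without SRF replicate 3 and SRF-FOXO1 replicate 1, the edgeR adjusted p was 0.0319 in SRF-ICA1L and 0.0567 in SRF-FOXO1.

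Against SRF with the block, SRF-ICA1L was higher for COL1A1 by 1.16 (SE 0.26, edgeR adjusted p = 0.0187), COL5A1 by 1.13 (SE 0.27, adjusted p = 0.0272), COL5A2 by 0.77 (SE 0.19, adjusted p = 0.0305) and COL5A3 by 2.40 (SE 0.54, adjusted p = 0.0249). The same differences without the block had edgeR adjusted p = 0.118, 0.292, 0.298 and 0.173. These calls held in 3, 2, 2 and 3 of 6 fits and were lost without SRF replicate 2. Leaving out SRF replicate 3 and SRF-FOXO1 replicate 1 together gave COL5A3 an edgeR adjusted p of 0.0716 with the block and kept the other 3 calls. COL5A1 was at 616, 816 and 456 CPM in SRF and 762, 2102 and 1330.5 CPM in SRF-ICA1L, groups that overlapped.

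COL3A1 was not called in any comparison. The pMSCV libraries held 8719, 5476 and 7201 CPM, those of SRF-ICA1L 8068, 10669.8 and 8184 CPM and the libraries labelled SRF-FOXO1 5398, 3716 and 5758 CPM. Its log2 difference from pMSCV was 0.45 in SRF-ICA1L (SE 0.27, edgeR adjusted p = 0.601) and -0.46 in SRF-FOXO1 (SE 0.27, edgeR adjusted p = 0.431). Type I collagen protein normally has 2 COL1A1 chains for each COL1A2 chain. In RNA, which need not follow the protein, the log2 ratio of COL1A1 to COL1A2 per length was below 0 in every library, from -0.93 to -0.11. The ratio depends on the transcript lengths used, 6727 and 5411 bases. In CPM, COL1A1 was above COL1A2 in SRF-ICA1L replicates 2 and 3 only. The ratio per length averaged -0.64 ± 0.13 (SD, n = 3) in pMSCV and -0.27 ± 0.17 in SRF-ICA1L. For COL5A1 to COL5A2 the ratio ran from -1.38 to -0.54.

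**Figure D4:**
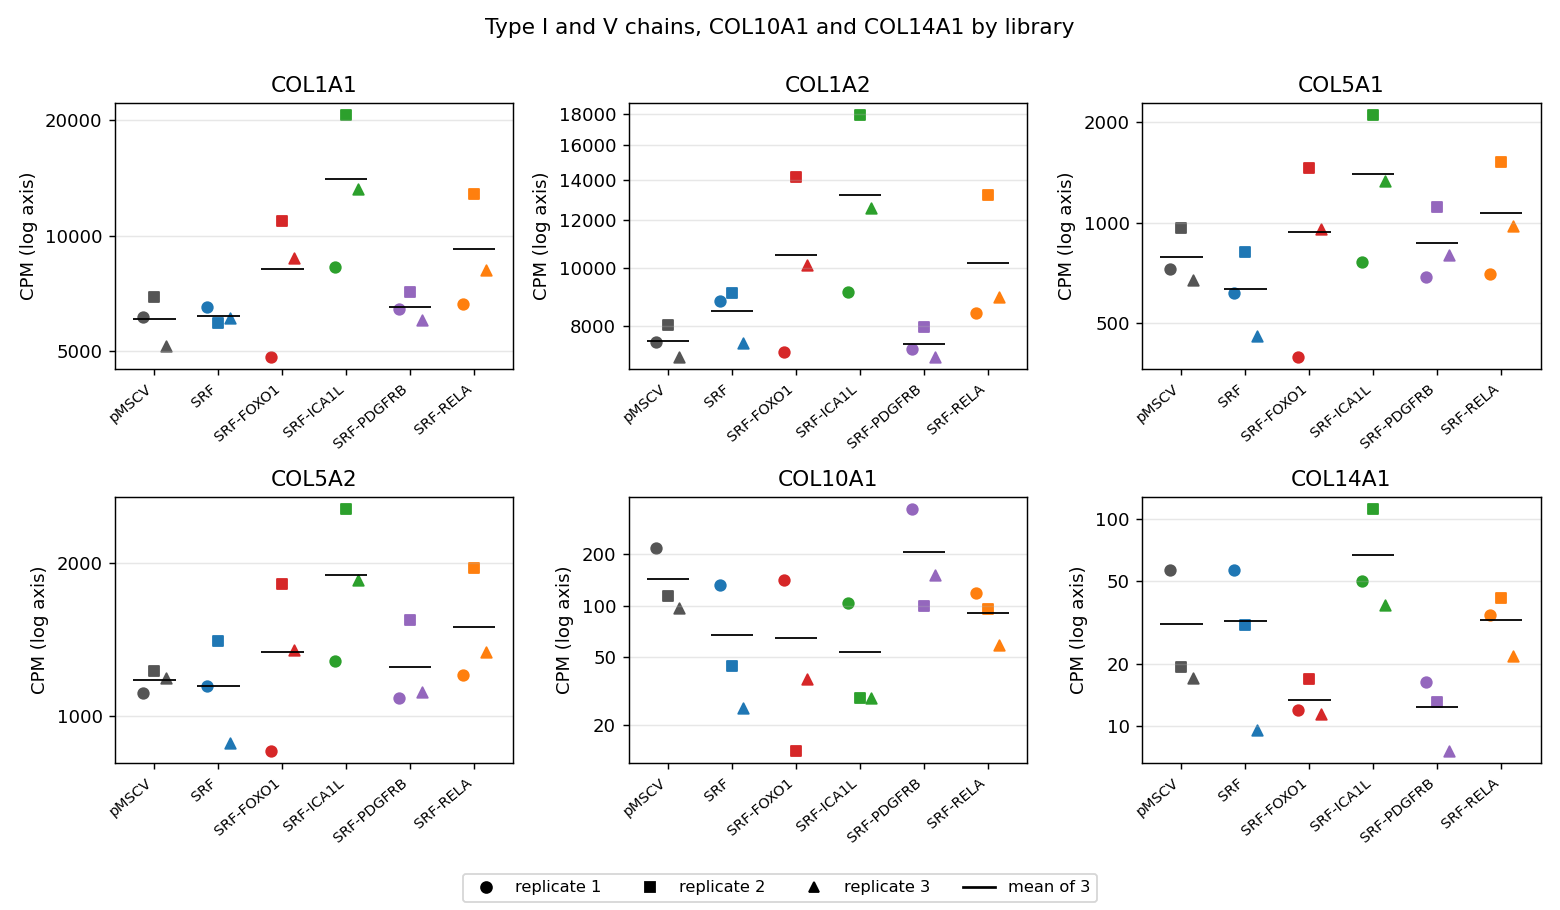
CPM of COL1A1, COL1A2, COL5A1, COL5A2, COL10A1 and COL14A1 in every library (log axes, 1 panel per gene), with shapes for replicate numbers and a line at the mean of 3. COL1A1 in SRF-ICA1L lies between 8266 and 20593 CPM, above the 3 pMSCV libraries at 5166 to 6936 CPM.

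COL24A1, a minor fibrillar chain known from developing bone and eye, was lower in the libraries labelled SRF-FOXO1. It was at 26.8, 15.7 and 15.8 CPM in pMSCV against 13.4, 8.18 and 8.09 CPM under the SRF-FOXO1 label, which lay below all 3 pMSCV libraries. With the replicate block it fell by 0.90 on the log2 scale (SE 0.18, edgeR adjusted p = 0.00661, against 0.243 without), and the call held in 6 of 6 fits and without both libraries that stood apart. It was also lower with the block than in SRF-PDGFRB, at -0.84 (SE 0.18, edgeR adjusted p = 0.0141, against 0.279 without; 4 of 6 fits), and than in SRF-RELA, at -1.04 (SE 0.18, edgeR adjusted p = 0.0276, against 0.469 without; 3 of 6 fits). COL27A1, a fibrillar chain of cartilage, was at 90.4, 80.3 and 112 CPM in SRF-PDGFRB and 52.3, 53.8 and 56.3 CPM under the SRF-FOXO1 label. With the block the difference of SRF-FOXO1 from SRF-PDGFRB was -0.70 (SE 0.15, edgeR adjusted p = 0.0138, against 0.0525 without; 5 of 6 fits), and that of SRF-ICA1L was -0.59 (SE 0.15, edgeR adjusted p = 0.0307, against 0.102 without; 1 of 6 fits). COL11A2 stayed between 3.48 and 6.03 CPM in all libraries.

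COL2A1 was too low to pass the count filter on all 18 libraries. SRF-RELA had the most counts, 3, 23 and 16, and pMSCV had 0 in each library. The other counts were 0, 1 and 2 for SRF, 2, 0 and 1 for SRF-PDGFRB, 1, 0 and 1 for SRF-ICA1L, and 1, 5 and 2 under the SRF-FOXO1 label. With no count filter, edgeR called it in SRF-RELA against pMSCV (adjusted p = 0.0140), where the pMSCV libraries were all at 0. Without SRF replicate 3 and SRF-FOXO1 replicate 1, COL2A1 passed the filter only through SRF-RELA, the group where it is high. Neither that call, made with the block, nor the call without a filter is independent support for a difference.

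In the type IV network, COL4A1 and COL4A2, whose products assemble together in nearly all basement membranes, varied more with the replicate number than with the group. COL4A1 was at 478, 1586 and 1186 CPM in pMSCV, 805, 2231 and 1089.7 CPM in SRF, 589, 4707 and 2102 CPM under the SRF-FOXO1 label and 1044, 4803 and 2381 CPM in SRF-ICA1L. It was at 776, 3011 and 1925 CPM in SRF-PDGFRB and 779, 3552 and 2136 CPM in SRF-RELA. Replicate 1 was the lowest and replicate 2 the highest in each of the 6 groups. COL4A2 ran from 850.3 to 1385 CPM over the replicate 1 libraries, 1964 to 3423 CPM over replicate 2 and 1351 to 2048 CPM over replicate 3. The log2 ratio of COL4A1 to COL4A2 per length ran from -1.01 to -0.43 in replicate 1, from -0.34 to 0.50 in replicate 2 and from -0.34 to 0.19 in replicate 3. What the replicate number marks is not given in the sources used here.

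With the block, COL4A1 rose against pMSCV by 1.34 in SRF-ICA1L (SE 0.24, edgeR adjusted p = 0.00516, against 0.564 without), a call that held in 6 of 6 fits. It rose by 1.02 in SRF-FOXO1 (SE 0.24, edgeR adjusted p = 0.0193, against 0.458 without; 3 of 6 fits), and in SRF-ICA1L against SRF by 0.91 (SE 0.24, edgeR adjusted p = 0.0435, against 0.654 without; 1 of 6 fits). COL4A2 rose against pMSCV with the block by 0.73 in SRF-ICA1L (SE 0.19, edgeR adjusted p = 0.0401, against 0.643 without; 0 of 6 fits).

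The COL4A1 and COL4A2 genes lie head to head on chromosome 13, with RefSeq starts at 110307157 and 110307284. In the GENCODE release 29 annotation the 2 genes overlap, so reads near the shared end could have been assigned to either or to none, which was not tested. The bases between the starts (GRCh38.p14, chr13:110307158-110307283, plus strand) are shown because both genes start from them, with the letters CCAAT in capitals.
COL4A1 and COL4A2, between the starts: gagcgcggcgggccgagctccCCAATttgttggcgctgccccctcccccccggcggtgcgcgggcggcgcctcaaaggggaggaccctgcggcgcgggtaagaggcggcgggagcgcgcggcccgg

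The letters CCAAT, on either strand, were in 14 of 44 windows of member genes (31.8%), against 34.61% of 35116 RefSeq windows of the same length, 250 bases before to 50 after each start. The 44 windows belong to 32 of the 42 symbols. COL1A1, COL1A2, COL2A1, COL3A1, COL5A2, COL6A1, COL8A1, COL9A3, COL14A1 and COL22A1 had no window and were not searched. TATAAA was in 8 of 44 (18.2%, against 11.53% of all), and the CArG box, the motif of SRF, was in 0 of 44 (1.29% of all), where CArG means CC, then 6 bases that are A or T, then GG, on either strand. The median GC content was 63.6% in the member windows and 58.7% in all. A match is a description of letters only, and the absence of one says nothing of binding outside the window.

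**Figure D5:**
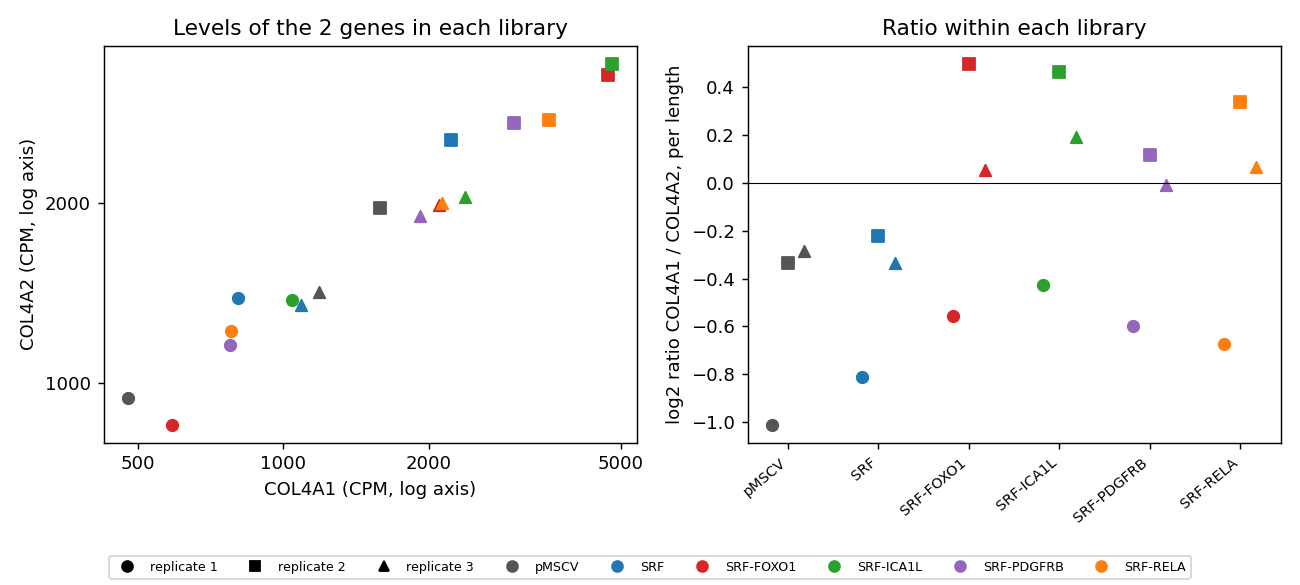
CPM of COL4A1 against that of COL4A2 in every library and their log2 ratio per length (log axes for CPM), with colours for groups and shapes for replicate numbers. Replicate 1 libraries lie at the low end of both genes, and replicate 2 libraries at the high end.

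The other type IV chains were low. COL4A3, a chain of kidney and lung basement membrane, was at 0.283, 0.602 and 1.00 CPM in pMSCV against 0.637, 4.23 and 1.85 CPM under the SRF-FOXO1 label, where it rose with the block by 1.89 (SE 0.51, edgeR adjusted p = 0.0363, against 0.186 without; 2 of 6 fits). COL4A4, its neighbour and partner, ran from 4.63 to 26.4 CPM over the libraries, with its highest value in the same SRF-FOXO1 library as COL4A3. COL4A5 and COL4A6, the X-linked pair, ran from 4.95 to 20.9 and from 0.238 to 2.75 CPM. COL4A5 and COL4A6 were without a call, as was COL4A4, which edgeR did call in SRF-FOXO1 against pMSCV with the block and the length correction together (log2 difference 1.22, edgeR adjusted p = 0.0481, against 0.117 with the block alone).

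Type VI chains had no call in the fit of all 18 libraries without the block. COL6A1 was at 4077, 3380.3 and 3557 CPM in pMSCV against 2549, 2253 and 2908 CPM under the SRF-FOXO1 label, groups that did not overlap, with a log2 difference of -0.44 (SE 0.15, edgeR adjusted p = 0.183). For COL6A2 the difference was -0.31 (SE 0.14, edgeR adjusted p = 0.326) and for COL6A3 -0.74 (SE 0.40, adjusted p = 0.405). With the block and the length correction, COL6A1 was called in SRF-FOXO1 against pMSCV (8.89% of all tested genes called). With the block and without both libraries that stood apart, edgeR called COL6A1 and COL6A2 lower in SRF-FOXO1 (11.8%) and COL6A1 lower in SRF-ICA1L (9.73%), each against pMSCV. Against SRF, the difference of SRF-FOXO1 was -0.4996 for COL6A1 (edgeR adjusted p = 0.1155) and -0.42 for COL6A2 (adjusted p = 0.169). Without both libraries that stood apart it was -0.59 for COL6A1 (SE 0.15, edgeR adjusted p = 0.0361) and -0.61 for COL6A2 (SE 0.13, adjusted p = 0.0227), and DESeq2 called both with all libraries (adjusted p = 0.0220 and 0.0486). The share of counts in type VI chains was 1.40% ± 0.266 (SD, n = 3) in pMSCV and 0.913% ± 0.0367 in the libraries labelled SRF-FOXO1. COL6A3, which has a transcript of 10749 bases, was at 9175, 5343 and 2434 CPM in SRF, and the lowest was SRF replicate 3, the library with the strongest length trend. COL6A3 also fell from replicate 1 to replicate 3 in groups without such a trend. It was at 9130, 6695 and 4980 CPM in pMSCV, 7925, 5186 and 3461 in SRF-PDGFRB, 8024, 6254 and 5111 in SRF-RELA, and 6665, 6474 and 4430 in SRF-ICA1L. Under the SRF-FOXO1 label it was at 3567, 4360 and 3876 CPM. The cause was not tested. The log2 ratio of COL6A1 to COL6A2 per length, from -0.53 to -0.09, was the narrowest of the 4 chain pairs. COL6A6 was at 1.92 CPM or less throughout.

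Of the short-chain collagens, COL10A1, the marker of hypertrophic cartilage, also followed the replicate number. It was at 217, 114 and 96.5 CPM in pMSCV, 133, 44.3 and 25.2 CPM in SRF, 142, 14.1 and 37.1 CPM under the SRF-FOXO1 label and 104, 28.8 and 28.8 CPM in SRF-ICA1L. It was at 367, 100 and 150.5 CPM in SRF-PDGFRB and 118, 95.3 and 58.7 CPM in SRF-RELA. Replicate 1 was the highest in every group. With the block SRF-FOXO1 fell by 1.45 against pMSCV (SE 0.40, edgeR adjusted p = 0.0486, against 0.536 without; 1 of 6 fits), and SRF-PDGFRB rose by 1.685 against SRF (SE 0.40, edgeR adjusted p = 0.0485, against 0.466 without; 0 of 6 fits). The latter was lost without both libraries that stood apart (edgeR adjusted p = 0.158 with the block). The differences of SRF-FOXO1 and SRF-ICA1L from SRF-PDGFRB with the block were -1.85 (edgeR adjusted p = 0.0228, against 0.370 without; 1 of 6 fits) and -1.90 (edgeR adjusted p = 0.0177, against 0.405 without; 2 of 6 fits). COL8A2 rose in SRF-ICA1L against SRF with the block by 1.33 (SE 0.36, edgeR adjusted p = 0.0496, against 0.181 without; 2 of 6 fits). COL8A1 lay between 276 and 846 CPM and was not called on all 18 libraries. It was called higher in SRF-FOXO1 against pMSCV with the block and without both libraries that stood apart.

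Among the fibril-associated chains, COL14A1, which binds decorin and limits fibril width, separated SRF-ICA1L from SRF-PDGFRB. It was at 50.3, 111 and 38.5 CPM in SRF-ICA1L, 16.4, 13.1 and 7.59 CPM in SRF-PDGFRB, 12, 16.8 and 11.4 CPM under the SRF-FOXO1 label and 56.8, 19.4 and 17 CPM in pMSCV. With the block SRF-ICA1L was higher than SRF-PDGFRB by 2.57 (SE 0.48, edgeR adjusted p = 0.00975, against 0.0932 without; 4 of 6 fits). SRF-FOXO1 was lower than SRF-ICA1L, with a log2 difference of -2.28 (SE 0.47, edgeR adjusted p = 0.0458, against 0.377 without; 1 of 6 fits), which was lost without both libraries that stood apart (adjusted p = 0.154). COL12A1 ran from 580.4 to 1966 CPM and was not called on all 18 libraries, with log2 differences from pMSCV between -0.07 in SRF (SE 0.36, edgeR adjusted p = 0.990) and 0.69 in SRF-RELA (SE 0.36, adjusted p = 1.0). Its transcript has 11723 bases, and its lowest level was in SRF replicate 3. With the block and without both libraries that stood apart, COL12A1 was called higher in SRF-FOXO1 (11.8% of all called), SRF-ICA1L (9.73%) and SRF-RELA (1.52%) against pMSCV. COL16A1 ran from 248 to 461 CPM, without a call. COL19A1 had 9, 160 and 19 counts in the libraries labelled SRF-FOXO1, so 1 library, replicate 2 at 6.26 CPM, held most of its counts there, and the other 17 libraries lay between 0.0888 and 0.880 CPM. COL9A2, COL9A3 and COL21A1 ran from 0.473 to 7.56 CPM, without a call.

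COL18A1, whose C-terminal fragment is endostatin, was at 50.8, 50.2 and 44.7 CPM in pMSCV, 55.2, 155 and 84.0 CPM under the SRF-FOXO1 label and 35.8, 57.3 and 36.3 CPM in SRF-PDGFRB. All 3 SRF-FOXO1 libraries lay above the pMSCV libraries. With the block it rose by 1.01 against pMSCV (SE 0.24, edgeR adjusted p = 0.0244, against 0.145 without; 2 of 6 fits). It was higher than in SRF-PDGFRB by 1.24 in SRF-FOXO1 (SE 0.24, edgeR adjusted p = 0.0122, against 0.101 without; 3 of 6 fits) and by 0.95 in SRF-ICA1L (SE 0.24, edgeR adjusted p = 0.0379, against 0.275 without; 0 of 6 fits). COL25A1, a transmembrane chain, was lower in SRF-ICA1L than in SRF-PDGFRB with the block, at -2.12 (SE 0.56, edgeR adjusted p = 0.0450, against 0.279 without; 1 of 6 fits). COL1A1, COL1A2, COL5A2 and COL5A3 made up the rest of the 10 chains in that comparison with COL11A1, at 1.145, 0.89, 0.69 and 2.27 on the log2 scale with the block. Their edgeR adjusted p-values were 0.0205, 0.0202, 0.0498 and 0.0311 with the block, against 0.128, 0.148, 0.366 and 0.221 without, and the calls held in 2, 2, 1 and 1 of 6 fits. COL1A1 and COL1A2 lost the call without SRF-ICA1L replicate 2 (edgeR adjusted p = 0.135 and 0.129), and COL5A3 lost it without both libraries that stood apart (edgeR adjusted p = 0.0561). COL7A1, the chain of anchoring fibrils, ran from 185 to 426 CPM, and COL13A1, COL15A1, COL17A1 and COL28A1 from 0.0417 to 34.7 CPM, without a call.

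Genes that make, bind and break down collagen were counted from lists, none of whose members passed the test without the block on all 18 libraries. Without both libraries that stood apart and without the block, BGN and ECM2 passed in SRF-ICA1L against SRF-PDGFRB (edgeR adjusted p = 0.0484 and 0.0192). There 2.08% of all tested genes were called. For biosynthesis and processing, 38 of 39 genes were tested. With the block, edgeR called 7 higher and 0 lower in SRF-FOXO1 against pMSCV, where it called 7.03% of all tested genes, and 10 higher and 0 lower in SRF-ICA1L against pMSCV, where it called 4.66%. SERPINH1, the collagen chaperone HSP47, rose by 0.82 and 0.77 (edgeR adjusted p = 0.0147 and 0.0264 with the block, against 0.144 and 0.247 without; 3 and 2 of 6 fits). PCOLCE2, which enhances the trimming of procollagen, rose by 1.73 and 1.07 (edgeR adjusted p = 0.000485 and 0.0160 with the block, against 0.265 and 0.627 without; 6 and 4 of 6 fits). In SRF-ICA1L, SPARC, a collagen-binding matrix protein, rose by 1.60 and LOX, a cross-linking enzyme, by 0.85 (edgeR adjusted p = 0.00558 and 0.0132 with the block, against 0.198 and 0.279 without; 6 and 3 of 6 fits). Against pMSCV, 0 of these genes were called with the block in SRF, SRF-PDGFRB or SRF-RELA. The median log2 difference over the list was 0.21 in SRF-FOXO1 and 0.25 in SRF-ICA1L with the block, beside 0.01 and -0.01 for all tested genes. Against SRF with the block, 6 genes were called higher and 1 lower in SRF-ICA1L (4.73% of all tested genes called). In SRF-RELA 1 was higher and 1 lower (1.73%), and in SRF-PDGFRB 0 and 1 (2.34%). The lower ones were LOXL3 in SRF-ICA1L and SRF-RELA, at -0.77 and -0.58, and PCOLCE in SRF-PDGFRB, at -0.51, with 6, 5 and 1 of 6 fits.

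Of 9 tested enzymes that degrade collagen, edgeR with the block called 4 lower and 0 higher in SRF-FOXO1 against pMSCV (7.03% of all tested genes called): CTSK (cathepsin K) fell by 0.75, FAP fell by 0.46, MMP14 fell by 0.86 and MMP2 fell by 0.49 on the log2 scale. Their edgeR adjusted p-values were 0.00316, 0.0246, 0.0143 and 0.0187 with the block, against 0.347, 0.408, 0.402 and 0.197 without, and 6, 3, 3 and 2 of 6 fits kept the call. In SRF-ICA1L (4.66% of all called), MMP3 and MMP14 were called lower, at -4.375 and -0.83 (edgeR adjusted p = 0.0420 and 0.0229 with the block, against 0.130 and 0.597 without; 1 and 2 of 6 fits). Of 9 tested small leucine-rich proteoglycans, which coat fibrils, BGN rose by 0.88 and OGN by 3.02 in SRF-ICA1L against pMSCV with the block (edgeR adjusted p = 0.00448 and 0.00509, against 0.146 and 0.367 without; 6 and 5 of 6 fits). Of 11 tested collagen receptors, ITGA10 fell by 1.11 in SRF-ICA1L against pMSCV with the block (edgeR adjusted p = 0.0229, against 0.494 without; 2 of 6 fits). These calls of SRF-FOXO1 and SRF-ICA1L against pMSCV also held with the block and without both libraries that stood apart. Against SRF with the block, CTSK was also lower in SRF-ICA1L, SRF-PDGFRB and SRF-RELA, at -0.68, -0.61 and -0.60. The edgeR adjusted p-values were 0.00738, 0.0237 and 0.0262, against 0.503, 0.504 and 0.563 without, with 5, 2 and 1 of 6 fits. Those of SRF-PDGFRB and SRF-RELA were lost without both libraries that stood apart (edgeR adjusted p = 0.0722 and 0.0702 with the block). In SRF-ICA1L against SRF with the block (4.73% of all called), 1 of the 11 receptors was called, ADGRG6. It rose by 1.34 (edgeR adjusted p = 0.0131, against 0.397 without), a call kept in 5 of 6 fits.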

How the data were processed

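RNA-seq of 18 libraries was analysed from the raw read counts per Ensembl gene identifier that the authors deposited, 1 column per library. Libraries were made with a TruSeq Stranded mRNA kit for NovaSeq sequencing, per the labels' protocols. Per the submitters' processing notes, FastQC 0.11.8, Trimmomatic 0.39, HISAT2 2.12.1, featureCounts and Subread 2.0.3 were used, with build GRCh38; annotation release, strand setting and multimapping are not given in the sources used here.

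CPM is a count divided by the library total, and transcript lengths are those of the GENCODE 29 principal transcript. Calls came from edgeR 4.0.16 in R 4.3.3: filterByExpr with a minimum count of 10 left 18544 genes, libraries were scaled by TMM, and robust quasi-likelihood F tests (two-sided) were run on all 18 libraries with 12 residual degrees of freedom and Benjamini-Hochberg adjustment over the tested genes, called under 0.05. An SE is the absolute log2 fold change divided by the square root of F. The fit was also run on simulated counts with large changes and no length trend. That run does not check smaller differences or the libraries that stood apart. Gene coordinates are from GENCODE 29 and sequences from RefSeq.

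Named chains are all 42 members, with full statistics for those called with or without the replicate block and for the 10 with the highest mean CPM. Members and lists were chosen with earlier results of these data known. Libraries of different groups with the same replicate number correlated over 0.1 in 44 of 45 pairs (median 0.375, against -0.18 for 90 pairs with different numbers), in deviations from group means over genes. The exception was replicate 1 of SRF and SRF-FOXO1 at 0.0875. On length-corrected values it was 0.136, and 45 of 45 pairs were over 0.1. The rule was applied to uncorrected values. The pairing is thus read from the values, not the labels. The block left 10 residual degrees of freedom. Alternatives were other scaling, DESeq2, count filters, a fold threshold, compared groups only, the block, a length correction, and leaving out libraries.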

Additional observations from a re-analysis of the deposited data

How the results depend on the processing

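None of the 47 log2 fold changes of chains called with or without the block changed sign under an alternative run. Those of chains without a call did: in SRF-PDGFRB against SRF, 22 of 37 chains lay above 0 without the length correction and 17 with it. The counts of chains called, which were 1 for SRF-FOXO1, SRF-ICA1L and SRF-RELA against pMSCV and against SRF and for the pairs of fusions and 0 otherwise, moved as follows. Scaling by total count gave 2 between fusions. The DESeq2 Wald test gave 2 for SRF-FOXO1 and 3 for SRF-ICA1L against pMSCV, 4 and 4 against SRF, and 7 between fusions. Beside COL11A1 these were COL18A1 for SRF-FOXO1, and COL1A1 and COL5A3 for SRF-ICA1L, against pMSCV. Against SRF they were COL18A1 (higher) and COL6A1 and COL6A2 (lower) for SRF-FOXO1, and COL1A1, COL5A3 and COL8A2 (higher) for SRF-ICA1L. Between fusions they were COL1A1, COL1A2, COL14A1, COL18A1, COL19A1 and COL27A1. No count filter gave 2 for SRF-RELA against pMSCV (COL2A1 joined) and 2 between fusions. The compared groups alone gave 0 for SRF-FOXO1 against pMSCV and 0 against SRF. The replicate block gave 7 for SRF-FOXO1 and 7 for SRF-ICA1L against pMSCV, 5, 7 and 1 for SRF-FOXO1, SRF-ICA1L and SRF-PDGFRB against SRF, and 11 between fusions. For SRF-FOXO1 against SRF, where replicate 1 libraries correlated at 0.0875 (0.136 on length-corrected values), the block called COL11A1 and COL18A1 higher and COL24A1, COL6A1 and COL6A2 lower. The length correction with the block gave 9, 8 and 2 for SRF-FOXO1, SRF-ICA1L and SRF-RELA against pMSCV, 5 and 9 for SRF-FOXO1 and SRF-ICA1L against SRF, and 12 between fusions. Without SRF replicate 3 and SRF-FOXO1 replicate 1 the counts were 4 for SRF-FOXO1 against pMSCV, 4 and 2 for SRF-FOXO1 and SRF-ICA1L against SRF, and 2 between fusions. The block without these 2 libraries, chosen after seeing the data as was the block leaving out each library in turn, gave 15, 12 and 5 for SRF-FOXO1, SRF-ICA1L and SRF-RELA against pMSCV, 7 and 9 for SRF-FOXO1 and SRF-ICA1L against SRF, and 14 between fusions. The shares of all tested genes called moved too: for SRF-FOXO1 and SRF-ICA1L against pMSCV they were 2.89% and 1.76% by DESeq2, 8.89% and 5.75% with length correction and block, 4.0% and 0.974% without the 2 libraries, and 11.8% and 9.73% with the block as well. Against SRF they were 3.88% and 2.41%, 9.92% and 6.52%, 5.5% and 1.36%, and 12.0% and 9.31% in the same order. Leaving out each library in turn gave 1 to 4 for SRF-FOXO1, 1 to 2 for SRF-ICA1L and 1 to 2 for SRF-RELA against pMSCV, 1 to 3 for SRF-FOXO1 against SRF, and 1 to 2 between fusions. The cause of these moves was not tested. Scaling by DESeq2 size factors, the stricter count filter, a log2 fold change of at least 1 and the length correction alone moved no count. Chains under about 3 counts a library, such as COL9A1 and COL23A1, are below what this depth can show.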
